A study of Mus musculus with 42 samples.

Results

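The genes described here are 42 mouse genes of the cell cycle and of DNA replication, out of 13809 genes in the deposited table of normalized expression. They were chosen by name as a list of cyclins, cyclin-dependent kinases, mitotic regulators, replication factors and enzymes of nucleotide supply. The rule used no measured value, but the list was chosen with earlier results of these data known. All 42 have a row in the table. The values come from RNA sequencing of whole tibialis anterior muscle, the muscle at the front of the lower leg, of male C57BL/6J mice aged 4 months. The series holds 42 libraries in 2 sequencing sets, and muscles were compared only within a set except where stated.

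Set 1 had WT muscle that was basal (n = 4) or immobilized (n = 3), Sesn1SkM-Tg muscle that was basal (n = 4) or immobilized (n = 3), and Sesn2SkM-Tg muscle that was basal (n = 4) or immobilized (n = 4). Set 2 had WT muscle that was basal, immobilized or denervated (n = 4 each) and Sesn1-/- muscle that was basal or immobilized (n = 4 each). Sesn1SkM-Tg mice carry a human Sestrin1 cDNA under the muscle creatine kinase promoter, which is active in muscle fibers. Sesn2SkM-Tg mice combine a tetracycline-regulated Sestrin2 transgene with a transactivator driven by the same promoter, so that both are driven in muscle fibers rather than in the other cells of the muscle. By the study's methods, each transgenic line had littermates without the transgene as WT controls. Here the same WT libraries of set 1 served both lines, and the labels do not say which line they came from. Sesn1-/- mice lack the gene in every cell. Immobilization fixed 1 hindlimb with rigid sticks under an adhesive bandage, and denervation removed a segment of the sciatic nerve. Where nothing in the labels says that libraries of a group came from separate animals, p-values measure only the spread between those libraries, which may be technical.

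A muscle fiber holds nuclei that have left the cell cycle, so transcripts of replication and mitosis in whole muscle come mainly from the mononucleated cells between the fibers, such as satellite cells, fibro-adipogenic progenitors, endothelial cells and macrophages. In a dividing cell, D-type cyclins with Cdk4 and then cyclin E with Cdk2 release the E2F factors, which switch on genes for the replicative helicase, the sliding clamp and nucleotide synthesis. Later, cyclins A and B with Cdk1, the Aurora and Polo kinases and the spindle proteins carry the cell through mitosis, and most of these genes are silent in resting cells. Several members also have roles outside division, since Pcna and Rrm1 also serve DNA repair, and cyclin D3 and Cdk4 are found in differentiated muscle.

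The targeted genes followed most labels. Sesn1 ranged over 14.98 to 22.09 in WT basal and 41.58 to 77.56 in Sesn1SkM-Tg basal muscle, and Sesn2 over 2.18 to 3.39 in WT basal and 6.54 to 13.0 in Sesn2SkM-Tg basal muscle. In Sesn1-/- basal muscle Sesn1 was 8.42 to 10.05 against 22.5 to 29.7 in WT, but in immobilized muscle the library labelled Sesn1-/- replicate 1 stood at 37.3, above the lowest WT library at 30.7, and Sesn1 did not pass the test between those groups (adjusted p = 0.0695). The 4 immobilized Sesn1-/- libraries, at 37.3, 27.7, 19.4 and 19.6, were all above the basal ones (1.37, adjusted p = 3.01e-06, limma). Sesn1 also rose with immobilization in WT muscle of that set, from a mean of 25.8 to 41.0 (0.63, adjusted p = 0.00723, limma). The difference between these changes was not called (0.73, adjusted p = 0.433, limma). In WT muscle of set 1 the change was -0.41, without a call (adjusted p = 0.203, limma). Sesn1 in immobilized muscle was 22.96 to 51.07 in Sesn1SkM-Tg and 12.4 to 15.2 in WT libraries, without a call (adjusted p = 0.0915). With Sesn1-/- immobilized replicate 1 left out, 15 members instead of 11 were called between immobilized and basal Sesn1-/- muscle. Some groups of set 1 were uneven: WT immobilized replicate 3 was the highest of its group for 38 of 42 members, against 32.2% of all genes, and Sesn1SkM-Tg immobilized replicate 3 for 41 of 42, against 36% of all genes, while replicate 1 was the lowest for 39 and 41 members in those groups. Sesn2SkM-Tg immobilized replicate 2 was the highest for 34 members, against 28.2% of all genes. Counts that rest on these libraries are given with and without them.

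Promoter sequence is shown for the members that passed the test in all 6 comparisons of a treatment with basal muscle (Mcm6, Pcna and Rrm1) and for Top2a, which passed in 5 and marks dividing cells. Each line gives the 250 bases before the RefSeq start site in GRCm38.p6, 5′ to 3′ on the gene's strand, and capitals mark letters that match a motif searched on both strands: CCAAT (the NF-Y box), TTTGAA (the cell cycle homology region, CHR) or an E2F site spelled TTTGGCGC, TTTCCCGC, TTTCGCGC or TTTGCCGC. Mcm6 is on the minus strand at chr1:128359706-128359955, Pcna on the minus strand at chr2:132253181-132253430, Rrm1 on the plus strand at chr7:102441445-102441694 and Top2a on the minus strand at chr11:99024190-99024439.
Mcm6: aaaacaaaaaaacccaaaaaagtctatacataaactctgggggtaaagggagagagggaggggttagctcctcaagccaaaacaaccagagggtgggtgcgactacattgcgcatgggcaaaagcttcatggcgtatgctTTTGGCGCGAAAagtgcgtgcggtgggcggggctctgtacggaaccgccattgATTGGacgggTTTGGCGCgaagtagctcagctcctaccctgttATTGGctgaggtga
Pcna: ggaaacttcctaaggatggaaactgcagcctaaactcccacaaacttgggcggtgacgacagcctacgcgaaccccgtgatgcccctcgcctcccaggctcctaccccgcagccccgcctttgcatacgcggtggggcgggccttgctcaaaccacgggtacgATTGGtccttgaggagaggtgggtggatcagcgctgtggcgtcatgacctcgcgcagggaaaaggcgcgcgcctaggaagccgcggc
Rrm1: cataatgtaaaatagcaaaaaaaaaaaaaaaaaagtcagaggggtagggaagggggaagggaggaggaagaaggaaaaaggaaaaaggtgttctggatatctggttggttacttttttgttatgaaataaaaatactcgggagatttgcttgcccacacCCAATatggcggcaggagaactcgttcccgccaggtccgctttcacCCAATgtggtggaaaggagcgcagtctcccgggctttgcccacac
Top2a: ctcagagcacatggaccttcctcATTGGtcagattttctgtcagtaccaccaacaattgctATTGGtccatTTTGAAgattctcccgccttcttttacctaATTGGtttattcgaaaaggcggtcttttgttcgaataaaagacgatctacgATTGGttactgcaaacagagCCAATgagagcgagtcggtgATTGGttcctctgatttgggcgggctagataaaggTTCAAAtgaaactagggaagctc
The Mcm6 stretch holds 3 E2F matches, of which a pair overlap on opposite strands, and 2 CCAAT boxes in the reverse orientation. Pcna has 1 CCAAT box, Rrm1 has 2, and Top2a has 6 CCAAT boxes with 2 CHR matches.

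Of the members, 33 had a promoter in the RefSeq table, counted over 300 bases with 50 after the start site. CCAAT was found in 25 of these (75.8%), compared with 37.9% of 27025 mouse promoters and 38.4% of the 9957 that belong to genes in the expression table. The CHR letters were found in 14 (42.4%, against 18.1% and 11.6%) and an E2F spelling in 6 (18.2%, against 2.32% and 3.91%). A match is a run of letters, not a measured binding site, and its absence says nothing about the factor.

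Most members were near the lower end of the measured range in basal muscle. Values are given as normalized counts, not logarithms, the lowest in the table being 0.00476, and the read depth behind them is not known, so small values carry an unknown counting error. In set 1, 15 members were below 1 in every basal library, including Top2a, Cdk1, all cyclins A2, B1 and B2, Aurkb, Plk1, Bub1, Cdc20 and Kif11, and in set 2 the same was true of 16. In each set 17 members were at 1 or more in every library. A gene was tested in a set if any library there reached 1, which all 42 did, but 15 in set 1 and 16 in set 2 passed only through treated muscle.

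Divided by exon length, so that genes can be set side by side, Pcna was the most abundant member in WT basal muscle at a mean of 8.0 per kb in set 1 and 8.58 per kb in set 2. Cdk4 followed at 5.92 and 6.57 per kb, and Rrm1 at 4.13 and 4.58 per kb. Aurka, at 2.33 and 4.13 per kb, stood above the other mitotic kinases. The markers of division were much lower, with Mki67 at 0.0813 and 0.0521 per kb and Top2a at 0.0610 and 0.0257 per kb. The lowest member in set 1 was Cenpe at 0.0174 per kb, and in set 2 Cdk1 at 0.0119 per kb. The level of a gene in whole muscle cannot tell fewer cells of a type from less RNA in each cell.

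**Figure D1:**
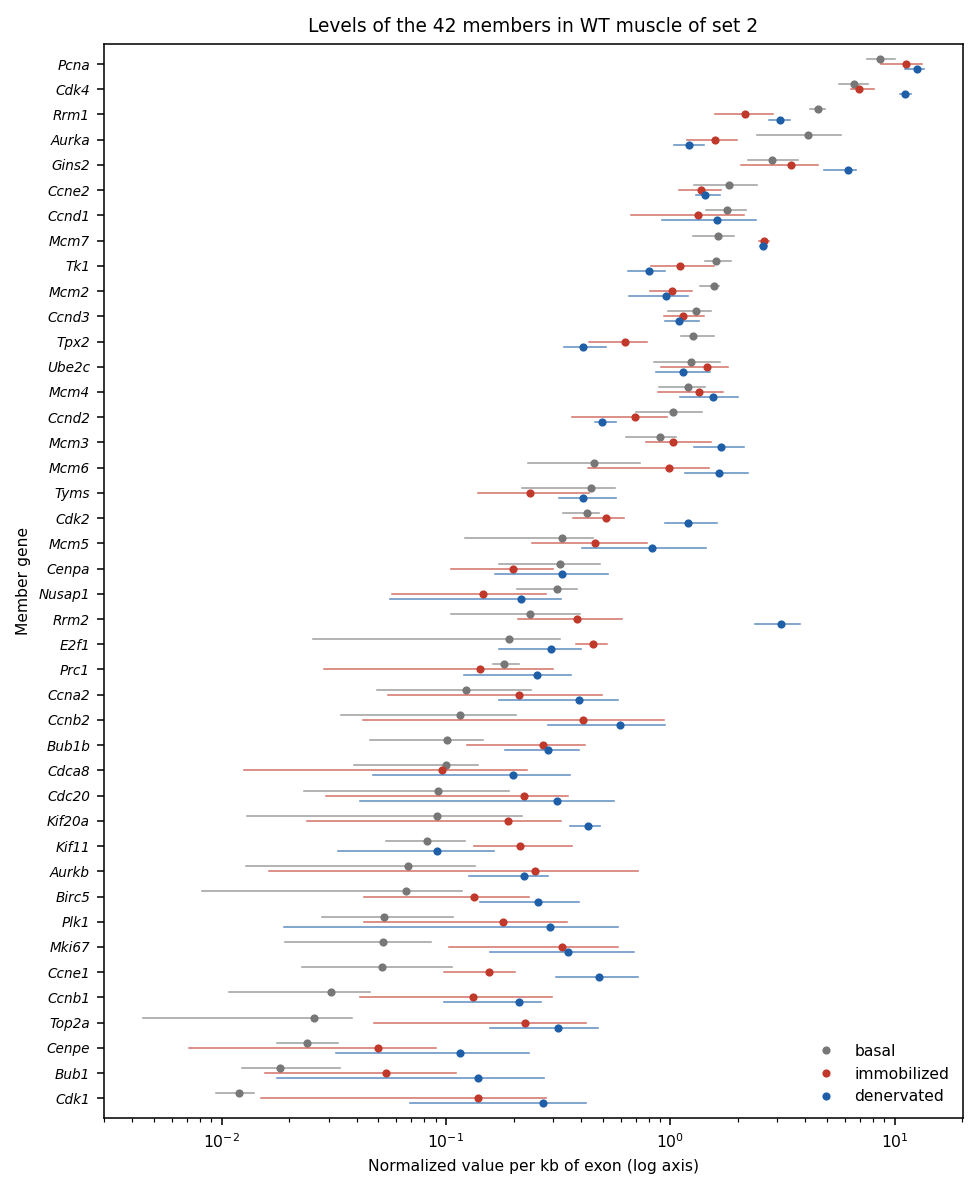
Level of each of the 42 members in WT muscle of set 2 as normalized counts per kb of exon on a log axis, with the group mean as a point and the lowest to highest of 4 libraries as a line, for basal, immobilized and denervated muscle. Pcna, Cdk4 and Rrm1 lie highest, and most mitotic members lie below 1 per kb in basal muscle.

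Immobilization of WT muscle in set 1 raised 27 of the 42 members and lowered 1, Rrm1 (limma on log2(value + 1), Benjamini-Hochberg adjusted p under 0.05 and a change of at least 0.25 on the log2 scale), where 14.9% of all genes tested were higher and 14.5% lower. In Sesn1SkM-Tg muscle 31 were higher and 2 lower (all genes 18.2% and 16.5%). In Sesn2SkM-Tg muscle the counts were 3 higher and 5 lower, below and close to the background of 15% and 15.7%. In set 2, immobilized WT muscle had 8 higher and 5 lower (background 16.2% and 17.7%) and immobilized Sesn1-/- muscle 6 higher and 5 lower (background 17.2% and 19.9%). Denervation raised 21 members and lowered 6, where 27.8% and 27.7% of all genes moved. Immobilized and denervated WT muscle of set 2 were compared with the same basal libraries.

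As shares, 64.3% and 73.8% of the members were higher after immobilization in WT set 1 and Sesn1SkM-Tg muscle and 50% after denervation, but 7.14% in Sesn2SkM-Tg, 19% in WT set 2 and 14.3% in Sesn1-/- muscle. The last 3 shares lay near or under the background, so the number of members called higher did not stand apart there. In these 3 groups, 34, 28 and 31 of the 42 members still had a change above 0. The median log2 change over the members was 0.81 in WT set 1, 0.96 in Sesn1SkM-Tg, 0.19 in Sesn2SkM-Tg, 0.22 in WT set 2, 0.25 in Sesn1-/- and 0.51 in denervated muscle, while the median over all genes was between -0.03 and 0.01 in every comparison. Members below 1 in every basal library were tested only because some treated library of the set, of any group, reached 1. Among those that reached 1 in a basal library, 13 of 27 were higher and 1 lower in WT set 1, 16 and 2 in Sesn1SkM-Tg, and 3 and 5 in Sesn2SkM-Tg muscle, and of 26 in set 2 there were 5 and 5 in WT, 4 and 5 in Sesn1-/- and 10 and 6 in denervated muscle.

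The size of the set 1 counts changed with single libraries left out, while some calls remained in each such fit. The shares of all genes called in these fits are not given here. Without WT immobilized replicate 3, 5 members were higher and 1 lower in WT muscle, and without Sesn1SkM-Tg immobilized replicate 3, 13 were higher and 2 lower. With both left out together, an alternative chosen after seeing the data, 14 were higher and 1 lower in WT and 17 were higher and 2 lower in Sesn1SkM-Tg muscle. In set 2 the 13 calls of immobilized WT muscle became 7 without basal replicate 3 or immobilized replicate 1, and in Sesn2SkM-Tg muscle the 8 calls became 4 without immobilized replicate 2. The 27 calls after denervation ranged over 21 to 29 with any library left out. Calls that held with each library of their comparison left out numbered 6 of 28 in WT set 1 (Mki67, Top2a, Ccne1, Cdk2, Ccnb2 and Rrm1), 15 of 33 in Sesn1SkM-Tg, 4 of 8 in Sesn2SkM-Tg (Pcna higher, Aurka, Mcm2 and Rrm1 lower), 5 of 13 in WT set 2 (Top2a and Mcm7 higher, Aurka, Tpx2 and Rrm1 lower), 9 of 11 in Sesn1-/- and 21 of 27 in denervated muscle.

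Scaling mattered for the direction of the counts. When each library was rescaled to an equal sum, the median of all genes shifted by 0.278 in WT set 1, 0.25 in Sesn1SkM-Tg, 0.256 in Sesn2SkM-Tg, 0.0771 in WT set 2, 0.0642 in Sesn1-/- and 0.348 in denervated muscle on the log2 scale. The share of all called genes that were higher then went from 50.7% to 84.7%, from 52.3% to 82.6%, from 48.9% to 80.4%, from 47.7% to 64.4%, from 46.4% to 60.1% and from 50.1% to 77.2%, in the same order. The members' higher and lower counts became 29 and 0, 35 and 1, 7 and 3, 8 and 3, 7 and 4, and 23 and 3. Calls of members as lower are therefore given below with their value after rescaling where they were lost. The share of all genes tested that was called either way after rescaling is not given here. The rescaled member counts thus have no background beside them and do not show an excess of members.

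**Figure D2:**
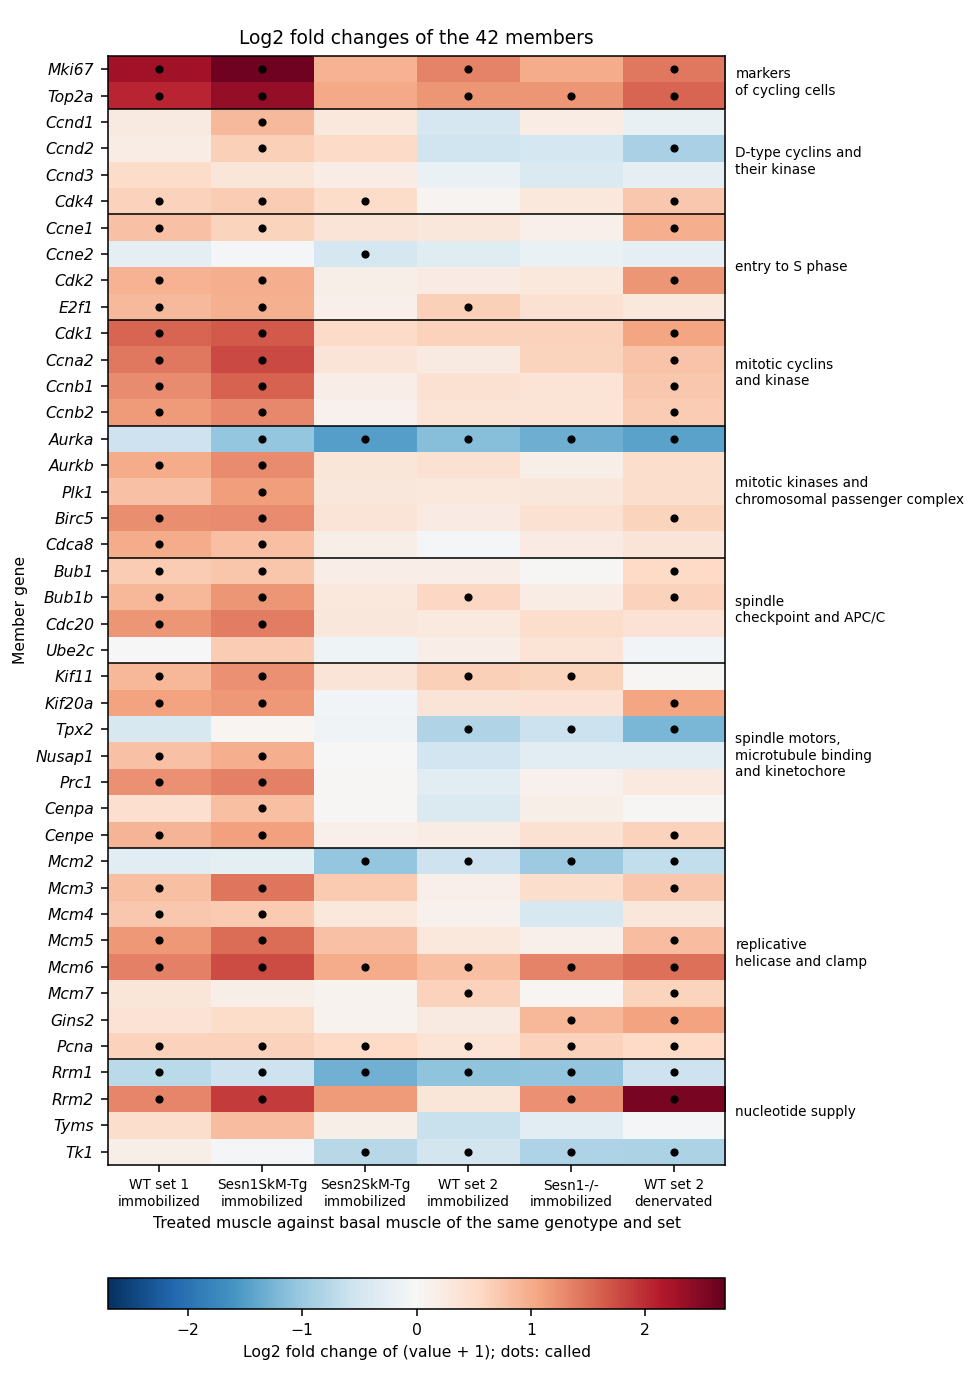
Log2 change of value + 1 for each of the 42 members (rows, grouped by role) in the 6 comparisons of treated with basal muscle (columns), red for higher and blue for lower in treated muscle, with a dot where limma called the change. Red dots fill the WT set 1, Sesn1SkM-Tg and denervation columns, and Aurka and Rrm1 are blue in all 6 columns.

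Mki67 and Top2a are the standard markers of cycling cells, Ki-67 coating mitotic chromosomes and topoisomerase II alpha untangling replicated DNA. Mki67 was 0.942, 0.673, 1.3 and 0.36 in WT basal libraries of set 1 and 3.93, 6.66 and 16.1 in immobilized ones. In Sesn1SkM-Tg muscle it was 0.767, 0.549, 0.194 and 0.195 in basal and 1.83, 9.94 and 20.4 in immobilized libraries. Every immobilized library lay above every basal one in both genotypes, with a log2 change of 2.28 (SE 0.48, adjusted p = 0.00162, limma) in WT and 2.63 (SE 0.48, adjusted p = 0.000396) in Sesn1SkM-Tg muscle. In Sesn2SkM-Tg muscle Mki67 was 0.532, 0.316, 0.632 and 0.334 in basal and 2.08, 3.72, 0.593 and 1.54 in immobilized libraries, of which replicate 3 was within the basal range, and the change of 0.94 (SE 0.44) did not pass (adjusted p = 0.116).

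In set 2 Mki67 was 0.192, 0.612, 0.864 and 0.43 in WT basal, 5.89, 1.04, 1.51 and 4.86 in immobilized and 6.92, 3.92, 1.59 and 1.64 in denervated libraries. Both treated groups were above the basal range, with changes of 1.33 (SE 0.41, adjusted p = 0.0149, limma) and 1.43 (SE 0.41, adjusted p = 0.00533), although the former was lost without immobilized replicate 1 or 4. Sesn1-/- muscle gave 0.431, 0.21, 1.74 and 0.579 in basal and 0.904, 4.79, 2.74 and 1.98 in immobilized libraries, which overlapped, and the change of 1.01 (SE 0.41) had an adjusted p of 0.057.

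Top2a separated basal from treated muscle in all 6 comparisons, but it was below 1 in every basal library and was tested only through treated libraries. It was 0.881, 0.0634, 0.752 and 0.501 in WT basal and 2.21, 5.85 and 10.4 in WT immobilized libraries of set 1, a change of 2.06 (SE 0.50, adjusted p = 0.00462, limma). The Sesn1SkM-Tg libraries were 0.27, 0.139, 0.245 and 0.421 when basal and 0.866, 7.99 and 16.1 when immobilized, and the Sesn2SkM-Tg libraries 0.44, 0.0592, 0.193 and 0.20 in basal and 1.53, 3.45, 0.964 and 0.646 in immobilized muscle. The Sesn1SkM-Tg groups differed by 2.38 (SE 0.50, adjusted p = 0.00127), and the Sesn2SkM-Tg groups, which did not overlap either, by 1.01 (SE 0.47, adjusted p = 0.104), which is not a call.

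In set 2 Top2a was 0.275, 0.345, 0.268 and 0.0401 in WT basal, 1.87, 0.432, 2.05 and 3.79 in immobilized and 3.65, 4.27, 2.03 and 1.42 in denervated libraries. Sesn1-/- muscle had 0.249, 0.116, 0.812 and 0.0977 in basal and 1.9, 3.19, 0.951 and 2.14 in immobilized libraries. The changes were 1.18 (SE 0.31, adjusted p = 0.00499, limma) with immobilization in WT, 1.19 (SE 0.31, adjusted p = 0.00427) in Sesn1-/- and 1.58 (SE 0.31, adjusted p = 0.000175) with denervation. The 5 calls of Top2a held with every library left out in turn.

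**Figure D3:**
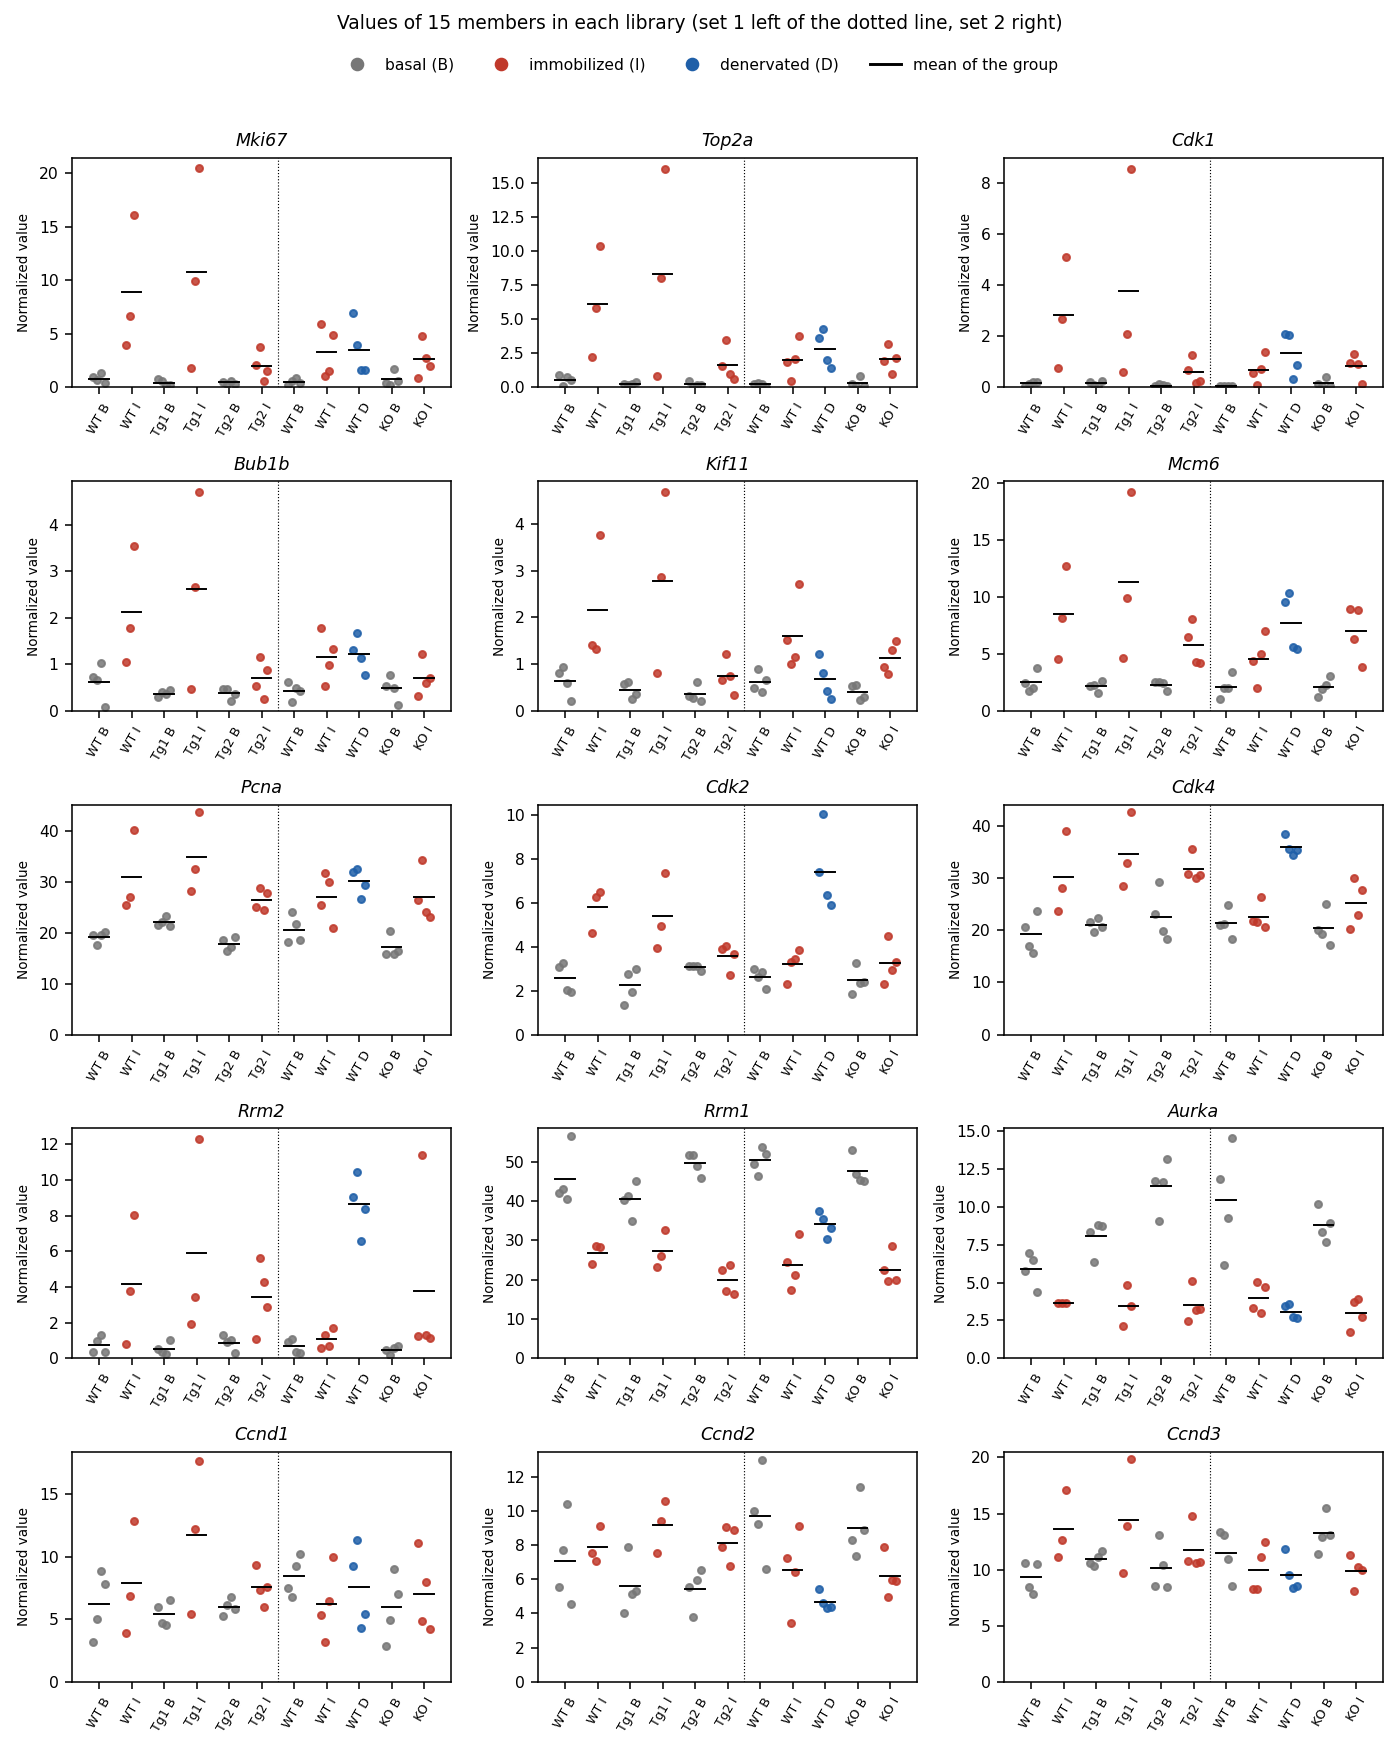
Normalized count of 15 members in each library (points) with the group mean (black bar), axes from 0, for basal (grey), immobilized (red) and denervated (blue) muscle, with a dotted line between the 2 sets. Replicates of immobilized WT and Sesn1SkM-Tg muscle in set 1 spread widely for Mki67 (3.93 to 16.1 and 1.83 to 20.4), while Aurka and Rrm1 lie lower in treated than in basal muscle in every panel group.

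The D-type cyclins join growth signals to the cycle by activating Cdk4, and the 3 genes gave 3 calls in the 6 treatment comparisons, Ccnd1 and Ccnd2 higher in Sesn1SkM-Tg muscle and Ccnd2 lower after denervation. Ccnd1 was 3.16, 5.04, 8.88 and 7.84 in WT basal and 3.89, 6.88 and 12.9 in WT immobilized libraries of set 1. Its Sesn1SkM-Tg values were 6, 4.72, 4.54 and 6.57 in basal and 5.45, 12.2 and 17.7 in immobilized muscle, and its Sesn2SkM-Tg values 5.3, 6.18, 6.82 and 5.79 in basal and 9.32, 7.31, 5.99 and 7.61 in immobilized muscle. The groups overlapped in each genotype, and the Sesn1SkM-Tg change of 0.87 (SE 0.33, adjusted p = 0.0476, limma) was lost in 6 of the 7 fits that left out a library of the comparison. In set 2 Ccnd1 was 7.5, 6.81, 9.29 and 10.3 in WT basal, 5.33, 3.15, 6.49 and 10 in immobilized and 9.29, 11.3, 4.31 and 5.42 in denervated muscle. The Sesn1-/- libraries were 2.9, 4.97, 9.06 and 7 when basal and 11.1, 4.85, 7.99 and 4.25 when immobilized, and no change of Ccnd1 passed in set 2. The opposite-strand gene LTO1 covers 23.4% of the exon bases of Ccnd1.

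Ccnd2 was 5.53, 7.74, 10.4 and 4.58 in WT basal and 7.54, 7.06 and 9.1 in WT immobilized libraries of set 1, with overlapping ranges. In Sesn1SkM-Tg muscle it was 4.03, 7.91, 5.12 and 5.34 in basal and 7.55, 9.4 and 10.6 in immobilized libraries, a change of 0.64 (SE 0.22, adjusted p = 0.0306, limma) that was lost in 5 of 7 fits with a library left out. In Sesn2SkM-Tg muscle it was 5.53, 3.8, 5.94 and 6.53 in basal and 7.9, 9.05, 6.78 and 8.87 in immobilized muscle, which did not overlap but missed the threshold (0.52, SE 0.21, adjusted p = 0.0642). Set 2 gave 9.99, 9.25, 13 and 6.6 in WT basal, 7.26, 3.43, 6.41 and 9.09 in immobilized and 5.4, 4.6, 4.33 and 4.4 in denervated libraries. Every denervated library was below every basal one (-0.88, SE 0.21, adjusted p = 0.00138), and rescaling to equal sums brought this to -0.48 (adjusted p = 0.0637). The Sesn1-/- libraries were 8.28, 7.38, 11.4 and 8.86 when basal and 7.9, 4.94, 5.93 and 5.91 when immobilized, without a call.

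Ccnd3, the D-type cyclin associated with muscle differentiation, was not called in any of the 6 comparisons. Set 1 had 10.6, 8.47, 7.84 and 10.5 in WT basal and 11.1, 12.6 and 17.1 in WT immobilized libraries, which did not overlap (0.49, SE 0.20, adjusted p = 0.073, limma). The Sesn1SkM-Tg libraries were 10.6, 10.3, 11.1 and 11.7 when basal and 9.65, 13.9 and 19.9 when immobilized, and the Sesn2SkM-Tg libraries 8.54, 13.1, 10.4 and 8.44 in basal and 10.8, 14.8, 10.6 and 10.7 in immobilized muscle. Set 2 had 13.3, 13.1, 10.9 and 8.58 in WT basal, 8.29, 8.24, 11.1 and 12.4 in immobilized and 11.8, 9.5, 8.35 and 8.57 in denervated libraries. Sesn1-/- muscle had 11.4, 12.9, 15.5 and 13.1 when basal and 11.3, 8.05, 10.3 and 9.96 when immobilized.

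Cdk4, the kinase these cyclins activate, was 20.6, 17.1, 15.7 and 23.7 in WT basal and 23.7, 28.1 and 39 in WT immobilized libraries of set 1. It was 21.6, 19.6, 22.4 and 20.7 in basal and 28.5, 33 and 42.7 in immobilized Sesn1SkM-Tg muscle, and 23.1, 29.3, 19.8 and 18.4 in basal and 30.8, 35.7, 30 and 30.6 in immobilized Sesn2SkM-Tg muscle. Immobilized libraries lay above basal ones in all 3 genotypes, in WT only just, with changes of 0.61 (SE 0.18, adjusted p = 0.0142, limma), 0.68 (SE 0.18, adjusted p = 0.00632) and 0.49 (SE 0.17, adjusted p = 0.0293), of which the WT and Sesn1SkM-Tg calls were lost without their immobilized replicate 3 (adjusted p = 0.136 and 0.0617) and the Sesn2SkM-Tg call in 3 of 8 fits with a library left out. In set 2 Cdk4 was 21, 21.3, 24.8 and 18.4 in WT basal, 21.8, 21.5, 26.4 and 20.7 in immobilized and 38.5, 35.6, 34.5 and 35.4 in denervated libraries. Denervated muscle stood above both other WT groups, by 0.73 over basal (SE 0.13, adjusted p = 4.92e-05) and 0.66 over immobilized (SE 0.13, adjusted p = 0.000334). The Sesn1-/- libraries, at 20.1, 19.3, 25.1 and 17.2 when basal and 20.2, 30.1, 23 and 27.7 when immobilized, overlapped. Of the exon bases of Cdk4, 19.7% also lie in Tspan31 on the opposite strand, and the library kit does not mark strand, and Tspan31 was not called in denervated against basal muscle (0.12) but was higher in denervated than in immobilized muscle by 0.65, as Cdk4 was.

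Entry into S phase is driven by cyclin E with Cdk2 and by E2f1, and 3 of the 4 members of this group (Ccne1, Cdk2 and E2f1) were higher after immobilization in WT set 1 and in Sesn1SkM-Tg muscle. Cdk2 was 3.1, 3.27, 2.02 and 1.93 in WT basal and 4.64, 6.26 and 6.52 in WT immobilized libraries of set 1. It was 1.34, 2.74, 1.95 and 2.99 in basal and 3.93, 4.93 and 7.38 in immobilized Sesn1SkM-Tg muscle, and 3.13, 3.13, 3.14 and 2.88 in basal and 3.89, 4.03, 2.72 and 3.69 in immobilized Sesn2SkM-Tg muscle. The WT and Sesn1SkM-Tg groups were apart, by 0.94 (SE 0.21, adjusted p = 0.0024, limma) and 0.97 (SE 0.21, adjusted p = 0.0014), while the Sesn2SkM-Tg groups overlapped (0.16, SE 0.19, adjusted p = 0.56).

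In set 2 Cdk2 was 2.99, 2.63, 2.83 and 2.07 in WT basal, 2.29, 3.31, 3.46 and 3.85 in immobilized and 7.43, 10, 6.35 and 5.91 in denervated muscle. The denervated libraries lay above all other WT libraries of the set, by 1.2 over basal (SE 0.19, adjusted p = 1.26e-05, limma) and 0.99 over immobilized (SE 0.19, adjusted p = 0.000236). The immobilization changes of 0.21 in WT and 0.29 in Sesn1-/- muscle did not pass, the latter from 1.85, 3.28, 2.35 and 2.38 to 2.29, 4.49, 2.95 and 3.3.

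Ccne1 rose in the same 3 comparisons with basal muscle, by 0.79 in WT set 1 (adjusted p = 0.00286, limma), 0.61 in Sesn1SkM-Tg (adjusted p = 0.0133, lost without immobilized replicate 3) and 0.98 after denervation (adjusted p = 3.11e-05), and denervated exceeded immobilized muscle by 0.67 (adjusted p = 0.00265). E2f1, a transcription factor of replication genes, rose by 0.87 in WT set 1, 0.95 in Sesn1SkM-Tg and 0.64 in WT set 2 (adjusted p = 0.0484, 0.0277 and 0.0274, limma), and these calls were lost in 5 of 7, 4 of 7 and 4 of 8 fits with a library left out. The WT set 1 change came down to 0.476 in such fits and its call was also lost with quantile scaling. Ccne2 was called lower in Sesn2SkM-Tg muscle (-0.47, adjusted p = 0.0342), a call lost after rescaling and in 6 of 8 fits with a library left out, and 17.4% of its exon bases lie in the opposite-strand gene Ints8.

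Cdk1 and its partners, cyclins A2, B1 and B2, start mitosis, and all 4 were called higher in WT set 1, in Sesn1SkM-Tg and in denervated muscle and none in the other 3 comparisons. All 4 were below 1 in every basal library of both sets, so only treated libraries let them into the test. Of such members, 14 of 15 were called higher in WT set 1, 15 of 15 in Sesn1SkM-Tg and 11 of 16 in denervated muscle. The same limit holds for Top2a, Ccne1, Aurkb, Plk1, Birc5, Cdca8, Bub1, Cdc20, Kif11, Kif20a and Cenpe, and for Bub1b in set 2. Cdk1 was 0.0449, 0.129, 0.208 and 0.221 in WT basal and 0.745, 2.66 and 5.11 in WT immobilized libraries of set 1, and 0.202, 0.104, 0.0421 and 0.252 in basal and 0.592, 2.1 and 8.56 in immobilized Sesn1SkM-Tg muscle. The groups were apart (1.56, SE 0.41, adjusted p = 0.00755 in WT and 1.66, SE 0.41, adjusted p = 0.00414 in Sesn1SkM-Tg, limma), but each call was lost without its immobilized replicate 3 (adjusted p = 0.0811 and 0.0545). The Sesn2SkM-Tg libraries were 0.0368, 0.12, 0.0908 and 0.0342 when basal and 0.672, 1.25, 0.18 and 0.243 when immobilized, apart but not called (0.52, SE 0.38, adjusted p = 0.322).

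In set 2 Cdk1 was 0.0688, 0.0594, 0.0464 and 0.0605 in WT basal, 0.555, 0.0742, 0.727 and 1.38 in immobilized and 2.08, 2.06, 0.342 and 0.864 in denervated libraries, and 0.145, 0.0516, 0.394 and 0.0435 in basal and 0.956, 1.32, 0.922 and 0.125 in immobilized Sesn1-/- muscle. All 4 denervated libraries were above the basal range (1.06, SE 0.27, adjusted p = 0.00204, limma). The immobilization changes of 0.61 in WT and 0.62 in Sesn1-/- muscle had adjusted p-values of 0.0833 and 0.0737. The cyclins rose by similar amounts: Ccna2 by 1.42, 1.77 and 0.78 in WT set 1, Sesn1SkM-Tg and denervated muscle, Ccnb1 by 1.29, 1.59 and 0.73, and Ccnb2 by 1.16, 1.31 and 0.68. The WT set 1 calls of Ccna2 and Ccnb1 were lost without immobilized replicate 3, and the denervation calls of Ccna2 and Ccnb2 in 2 and 3 of 8 fits with a library left out. Ccna2 shares 12.5% of its exon bases with the opposite-strand gene Exosc9, which was itself higher after denervation (0.72), and Ccnb1 and Ccnb2 have listed pseudogenes, so their reads may be shared.

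Aurka, the kinase that matures the spindle poles, moved opposite to most other mitotic members. It was 5.76, 6.99, 6.52 and 4.35 in WT basal and 3.65, 3.65 and 3.65 in WT immobilized libraries of set 1. In Sesn1SkM-Tg muscle it was 8.33, 6.36, 8.81 and 8.72 when basal and 2.12, 4.86 and 3.46 when immobilized, and in Sesn2SkM-Tg muscle 11.7, 9.04, 11.7 and 13.2 in basal and 2.46, 5.13, 3.2 and 3.22 in immobilized muscle. In set 1 every immobilized library was below every basal library of its genotype, with changes of -0.55 (SE 0.21, adjusted p = 0.0518, limma, not a call), -1.05 (SE 0.21, adjusted p = 0.00086) and -1.48 (SE 0.20, adjusted p = 1.16e-05).

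In set 2 Aurka was 11.8, 6.17, 9.26 and 14.6 in WT basal, 3.28, 5.02, 3.02 and 4.68 in immobilized and 3.43, 3.56, 2.7 and 2.63 in denervated libraries. The Sesn1-/- libraries were 10.2, 8.31, 7.68 and 8.97 when basal and 1.75, 3.71, 3.91 and 2.71 when immobilized. Again no treated library reached the basal range, and Aurka fell by 1.16 in immobilized WT (SE 0.22, adjusted p = 0.00029, limma), by 1.32 in Sesn1-/- (SE 0.22, adjusted p = 6.08e-05) and by 1.44 in denervated muscle (SE 0.22, adjusted p = 8.55e-06). These 5 calls held with every library left out in turn and after rescaling.

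The other mitotic kinases and the chromosomal passenger complex, which corrects chromosome attachment, went the other way where they were called. Aurkb rose by 1.00 in WT set 1 and 1.27 in Sesn1SkM-Tg muscle, Birc5 (survivin) by 1.26, 1.28 and, after denervation, 0.60, and Cdca8 (borealin) by 1.00 and 0.82. Plk1, the Polo kinase, was called higher in Sesn1SkM-Tg muscle (1.12). Without immobilized replicate 3 of the group, the WT set 1 calls of Aurkb, Birc5 and Cdca8 and the Sesn1SkM-Tg calls of Plk1, Birc5 and Cdca8 were lost, and the denervation call of Birc5 was lost without denervated replicate 2. In the remaining comparisons no member of this group but Aurka passed.

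Bub1b encodes BubR1, a kinase-like protein of the spindle checkpoint, which holds the anaphase-promoting complex in check until chromosomes are attached. It was 0.729, 0.674, 1.03 and 0.0795 in WT basal and 1.06, 1.78 and 3.55 in WT immobilized libraries of set 1, and 0.292, 0.403, 0.357 and 0.445 in basal and 0.462, 2.66 and 4.7 in immobilized Sesn1SkM-Tg muscle. These groups just failed to overlap, with changes of 0.90 (SE 0.33, adjusted p = 0.0451, limma) and 1.19 (SE 0.33, adjusted p = 0.00882), and the WT call was lost in 5 of 7 fits with a library left out. In Sesn2SkM-Tg muscle the basal values 0.464, 0.461, 0.214 and 0.364 overlapped the immobilized values 0.543, 1.17, 0.262 and 0.889 (0.29, adjusted p = 0.502).

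In set 2 Bub1b was 0.625, 0.195, 0.491 and 0.419 in WT basal, 1.79, 0.529, 0.986 and 1.32 in immobilized and 1.31, 1.67, 1.13 and 0.781 in denervated muscle. Denervated libraries cleared the basal range (0.63, SE 0.20, adjusted p = 0.0127, limma), while the immobilized group overlapped it and its call (0.56, SE 0.20, adjusted p = 0.0373) was lost in 6 of 8 fits with a library left out. The Sesn1-/- values of 0.54, 0.779, 0.488 and 0.136 in basal and 0.324, 1.22, 0.592 and 0.699 in immobilized libraries did not pass the test (0.20, adjusted p = 0.483). Bub1, its partner kinase, rose by 0.69 in WT set 1, 0.75 in Sesn1SkM-Tg and 0.53 in denervated muscle, and Cdc20, the activator of the complex, by 1.19 and 1.37 in the former pair. The Bub1 calls in both groups of set 1 were lost without immobilized replicate 3 of the group. So were the Cdc20 call in WT and the Bub1b call in Sesn1SkM-Tg muscle. Cdc20 shares 2.84% of its exon bases with the opposite-strand gene Elovl1, which was also higher in WT set 1 (1.10) and Sesn1SkM-Tg muscle (0.93). Ube2c, the ubiquitin-conjugating enzyme of the complex, was never called, and 22.8% of its exon bases lie in the opposite-strand troponin gene Tnnc2, whose group means were 3946 to 8918, so its level is uncertain.

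Kif11 is the kinesin that pushes spindle poles apart. It was 0.815, 0.94, 0.589 and 0.202 in WT basal and 1.4, 1.33 and 3.76 in WT immobilized libraries of set 1, and 0.575, 0.625, 0.265 and 0.357 in basal and 0.801, 2.86 and 4.68 in immobilized Sesn1SkM-Tg muscle. Immobilized libraries were above basal ones in both genotypes (0.89, SE 0.30, adjusted p = 0.0303, limma, lost in 3 of 7 fits with a library left out, and 1.24, SE 0.30, adjusted p = 0.00364). In Sesn2SkM-Tg muscle, at 0.312, 0.276, 0.612 and 0.218 when basal and 0.666, 1.22, 0.752 and 0.344 when immobilized, the groups overlapped (0.35, adjusted p = 0.361).

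In set 2 Kif11 was 0.488, 0.905, 0.402 and 0.664 in WT basal, 1.51, 0.995, 1.16 and 2.71 in immobilized and 1.22, 0.821, 0.428 and 0.247 in denervated libraries. Sesn1-/- libraries were 0.542, 0.556, 0.229 and 0.292 when basal and 0.934, 0.779, 1.3 and 1.49 when immobilized. Kif11 thus rose with immobilization in WT (0.65, SE 0.21, adjusted p = 0.0188, limma) and Sesn1-/- muscle (0.59, SE 0.21, adjusted p = 0.0289), while its denervated libraries overlapped the basal ones (0.03, SE 0.21, adjusted p = 0.91). Denervated was lower than immobilized muscle by the test (-0.62, SE 0.21, adjusted p = 0.0216), a call lost after rescaling (-0.48, adjusted p = 0.078) and in 3 of 8 fits with a library left out. The immobilization calls were lost in 2 of 8 such fits in WT and 4 of 8 in Sesn1-/- muscle.

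Of the 7 spindle and kinetochore members, 5 rose in WT set 1: besides Kif11 these were the kinesin Kif20a (1.09), the microtubule bundlers Nusap1 (0.78) and Prc1 (1.22), and the kinetochore motor Cenpe (0.91). With a library left out these calls were lost in 6, 5, 2 and 2 of 7 fits for Kif20a, Nusap1, Prc1 and Cenpe, and the change of Nusap1 came down to 0.333. In Sesn1SkM-Tg muscle Cenpa, the centromeric histone H3 variant, joined them at 0.82 (lost in 3 of 7 fits). Denervation raised Kif20a (1.07) and Cenpe (0.63), the latter lost in 5 of 8 fits. Tpx2, which activates Aurora A on spindle microtubules, fell in set 2 as Aurka did, with -0.81 in immobilized WT (adjusted p = 0.00372, limma), -0.58 in Sesn1-/- (adjusted p = 0.0295) and -1.24 in denervated muscle (adjusted p = 2.54e-05). The Sesn1-/- call of Tpx2 was lost after rescaling (-0.49, adjusted p = 0.072) and in 2 of 8 fits with a library left out. Kif20a shares 29.3% of its exon bases with Cdc23 and Prc1 11.1% with Rccd1, neither of which was called higher in WT set 1 (-0.25 and -0.53).

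The Mcm2 to Mcm7 subunits form the helicase that opens origins, GINS activates it and PCNA clamps the polymerases to DNA. Mcm6 was 2.49, 1.78, 1.99 and 3.8 in WT basal and 4.52, 8.15 and 12.7 in WT immobilized libraries of set 1. It was 2.21, 2.31, 1.58 and 2.66 in basal and 4.65, 9.91 and 19.2 in immobilized Sesn1SkM-Tg muscle, and 2.51, 2.52, 2.44 and 1.73 in basal and 6.44, 8.03, 4.33 and 4.2 in immobilized Sesn2SkM-Tg muscle. The groups were apart in all 3 genotypes, by 1.37 (SE 0.33, adjusted p = 0.00439, limma), 1.77 (SE 0.33, adjusted p = 0.000498) and 1.00 (SE 0.31, adjusted p = 0.0169). The WT call was lost without immobilized replicate 3 (adjusted p = 0.0512) and the Sesn2SkM-Tg call in 2 of 8 fits with a library left out.

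In set 2 Mcm6 was 1.09, 1.97, 2.03 and 3.41 in WT basal, 4.41, 2, 4.98 and 6.97 in immobilized and 9.56, 10.4, 5.56 and 5.42 in denervated libraries. Sesn1-/- libraries were 1.21, 1.93, 2.29 and 3.03 when basal and 8.93, 6.3, 8.85 and 3.83 when immobilized. Denervated and immobilized Sesn1-/- libraries were clear of their basal groups (1.48, SE 0.30, adjusted p = 0.000251 and 1.33, SE 0.30, adjusted p = 0.00137, limma), whereas the WT immobilized group overlapped the basal one and its call (0.81, SE 0.30, adjusted p = 0.0415) was lost in 6 of 8 fits with a library left out.

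Pcna, at a far higher level than Mcm6, was also called higher in all 6 comparisons. Its group means went from 19.2 to 30.8 in WT set 1, from 22 to 34.8 in Sesn1SkM-Tg, from 17.8 to 26.5 in Sesn2SkM-Tg, from 20.6 to 27 in WT set 2, from 17.1 to 27 in Sesn1-/- and from 20.6 to 30.1 in denervated muscle. The log2 changes were 0.63, 0.61, 0.55, 0.36, 0.62 and 0.53 in that order, with adjusted p-values from 0.00128 to 0.0457 (limma). The groups overlapped only in immobilized WT muscle of set 2, where the call was lost in 6 of 8 fits with a library left out, and the WT set 1 call was lost without immobilized replicate 3 (adjusted p = 0.0527). Pcna has listed pseudogenes, to which some reads may belong.

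The helicase subunits did not move as a unit. Mcm3 rose by 0.82, 1.44 and 0.73 and Mcm5 by 1.16, 1.51 and 0.82 in WT set 1, Sesn1SkM-Tg and denervated muscle, and Mcm4 by 0.72 and 0.70 in the former pair. Without WT immobilized replicate 3 the WT calls of all 3 were lost, Mcm3 in 5 of 7 fits in all with a change down to 0.478, and after denervation the calls of Mcm3 and Mcm5 were lost in 3 and 2 of 8 fits. Mcm7 rose in immobilized WT of set 2 (0.62, adjusted p = 0.000862, limma) and in denervated muscle (0.61, adjusted p = 0.000468). The opposite-strand gene Ap4m1 shares 7.25% of the Mcm7 exon bases. Ap4m1 was also higher after denervation (0.52) but was not called in immobilized WT muscle of set 2 (0.05). Cops6, which shares 1.45%, was called in neither. Mcm2 was called lower in Sesn2SkM-Tg (-1.05, adjusted p = 0.00169), immobilized WT of set 2 (-0.57, adjusted p = 0.0365), Sesn1-/- (-0.98, adjusted p = 0.000714) and denervated muscle (-0.66, adjusted p = 0.00965). After rescaling the WT set 2 and denervation calls of Mcm2 were lost (adjusted p = 0.09 and 0.315), and the former also in 5 of 8 fits with a library left out. Gins2 rose in Sesn1-/- (0.89) and denervated muscle (1.09), but 67.3% of its exon bases lie in the opposite-strand gene Gse1, which was also called higher there (0.53 and 0.85).

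Ribonucleotide reductase makes deoxynucleotides from a large subunit, Rrm1, and a small subunit, Rrm2. Rrm1 was called lower in all 6 treatment comparisons, and Rrm2 higher in 4 of them. Rrm1 was 42, 43.1, 40.5 and 56.5 in WT basal and 23.9, 28.5 and 28.4 in WT immobilized libraries of set 1. It was 40.3, 41.4, 34.9 and 45.2 in basal and 23.2, 26 and 32.7 in immobilized Sesn1SkM-Tg muscle, and 51.7, 51.8, 49 and 45.9 in basal and 22.5, 17.1, 23.7 and 16.4 in immobilized Sesn2SkM-Tg muscle. No immobilized library reached the basal range of its genotype, and the changes were -0.73 (SE 0.15, adjusted p = 0.00143, limma), -0.56 (SE 0.15, adjusted p = 0.00737) and -1.29 (SE 0.14, adjusted p = 1.35e-06).

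In set 2 Rrm1 was 49.5, 46.4, 53.8 and 51.9 in WT basal, 24.4, 17.4, 21.2 and 31.5 in immobilized and 37.5, 35.4, 30.2 and 33.2 in denervated libraries. The Sesn1-/- libraries were 52.9, 46.8, 45.4 and 45.1 when basal and 22.3, 19.6, 28.4 and 20 when immobilized. Again no treated library reached the basal range, with changes of -1.09 (SE 0.14, adjusted p = 4.45e-06, limma), -1.06 (SE 0.14, adjusted p = 4.41e-06) and, after denervation, -0.55 (SE 0.14, adjusted p = 0.00185). Denervated muscle was above immobilized muscle by 0.54 (SE 0.14, adjusted p = 0.00375). After rescaling, the calls in Sesn2SkM-Tg (-0.99), WT set 2 (-0.97) and Sesn1-/- (-0.94) were kept, and those in WT set 1 (-0.40, adjusted p = 0.0579), Sesn1SkM-Tg (-0.26, adjusted p = 0.219) and denervated muscle (-0.10, adjusted p = 0.565) were lost.

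Rrm2, the subunit made in S phase, was 0.908, 1.1, 0.32 and 0.293 in WT basal, 0.582, 1.32, 0.676 and 1.69 in immobilized and 9.05, 10.5, 6.59 and 8.39 in denervated libraries of set 2. Denervated muscle was above both, by 2.56 over basal (SE 0.39, adjusted p = 9.39e-06, limma) and 2.24 over immobilized (SE 0.39, adjusted p = 9.77e-05). Sesn1-/- muscle gave 0.458, 0.159, 0.567 and 0.692 when basal and 1.25, 11.4, 1.31 and 1.13 when immobilized, a change of 1.23 (adjusted p = 0.0156) that ranged over 0.614 to 1.46 with a library left out, replicate 2 being far above the rest of its group. In set 1 Rrm2 rose by 1.33 in WT (adjusted p = 0.043, lost in 5 of 7 fits with a library left out) and 1.89 in Sesn1SkM-Tg muscle (adjusted p = 0.00508, lost without immobilized replicate 3), and had 1.15 in Sesn2SkM-Tg muscle (adjusted p = 0.0545).

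Tk1, thymidine kinase of the salvage path, was lower in Sesn2SkM-Tg (-0.75, adjusted p = 0.0227, limma), immobilized WT of set 2 (-0.49, adjusted p = 0.0217), Sesn1-/- (-0.82, adjusted p = 0.000366) and denervated muscle (-0.85, adjusted p = 0.000132). The Sesn2SkM-Tg and WT calls of Tk1 were lost after rescaling (adjusted p = 0.156 and 0.1) and in 1 and 3 of 8 fits with a library left out. Tyms, thymidylate synthase, was not called in any of the 6 comparisons and has a listed pseudogene. Counted over these comparisons, 3 members were called in none (Ccnd3, Ube2c and Tyms), 4 in 1, 9 in 2, 14 in 3, 7 in 4, Top2a and Aurka in 5, and Mcm6, Pcna and Rrm1 in 6.

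Denervated and immobilized WT muscle of set 2 were compared directly to see whether the members respond alike to the loss of nerve and the loss of movement. Denervated muscle was higher for 7 members (Cdk4, Ccne1, Cdk2, Kif20a, Gins2, Rrm1 and Rrm2) and lower for Kif11, where 20.5% of all genes were higher and 18.4% lower, so the share of members called was below the background. Rrm2 (2.24), Cdk2 (0.99) and Gins2 (0.84) were the farthest apart, and the Kif20a and Kif11 calls were lost in 6 and 3 of 8 fits with a library left out. After rescaling, 16 were higher and 0 lower. The median of all genes then shifted by 0.258, and the share of called genes that were higher went from 52.7% to 82.3%. The share of all genes tested that was called after rescaling is not given here, so the 16 have no background beside them.

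Between genotypes, the members were compared in basal and in immobilized muscle of the same set. Since the same WT libraries served both transgenic lines, an effect of a transgene cannot be told apart from a difference between litters or lines. No member was called between Sesn1SkM-Tg and WT muscle, either basal or immobilized, and none at an unadjusted p under 0.05 (limma), where 0.0292% and 0.0073% of all genes were called. The median log2 difference of -0.04 in basal and 0.14 in immobilized muscle turned to -0.23 in the latter without Sesn1SkM-Tg immobilized replicate 3 and was 0.57 without replicate 1. Between Sesn1-/- and WT muscle, 0 members were called in basal (background 0.147%) and 0 in immobilized muscle (0.947%), with 2 at an unadjusted p under 0.05 in each (limma). In basal muscle the pair were Mcm3 (-0.72) and Tpx2 (-0.58), each with an adjusted p of 0.908 by limma.

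Sesn2SkM-Tg differed from WT basal muscle in 2 members, where 2.5% of all genes were called. Aurka was higher, with means of 11.4 and 5.9 (0.85, adjusted p = 0.0205, limma, lost after rescaling with 0.0805), and Tpx2 lower, with 1.59 and 6.09 (-1.37, adjusted p = 0.0261). With a library left out, the Aurka call was lost in 4 of 8 fits and the Tpx2 call in 5 of 8. In immobilized muscle 0 members were called (background 2.94%), but 22 (52.4%) had an unadjusted p under 0.05, all lower in Sesn2SkM-Tg muscle, where 2637 of 13705 genes (19.2%) did, and the members had a median log2 difference of -0.53. The macrophage markers had a median difference of -1.20 there with Csf1r and C1qb called lower, and the fibro-adipogenic markers one of -0.69 with Lum called lower, and their part in the members' values was not tested. Ccnb2 came nearest (-1.02, SE 0.28, adjusted p = 0.0542), then Kif20a (-1.32, SE 0.39, adjusted p = 0.0625) and Mki67 (-1.64, SE 0.48, adjusted p = 0.0627), whose means were 1.98 in Sesn2SkM-Tg and 8.9 in WT muscle. This comparison rests on the same uneven WT group, and the median was -0.30 without WT immobilized replicate 3 and -0.75 without replicate 1.

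The change of the immobilization effect with genotype was tested itself. No member passed for Sesn1SkM-Tg minus WT (background 0%, 0 members at an unadjusted p under 0.05), for Sesn2SkM-Tg minus WT (background 0.0073%, 11 at an unadjusted p under 0.05, all lower, against 1008 of 13705 genes or 7.35%) or for Sesn1-/- minus WT (background 0.022%, 1 at an unadjusted p under 0.05), by limma. The 3 called members in Sesn2SkM-Tg muscle against 27 in WT muscle of set 1 are therefore not shown to be a difference in response. The median interaction for Sesn2SkM-Tg was -0.55, and -0.31 without WT immobilized replicate 3. Aurka had an interaction of -0.93 there (adjusted p = 0.367), and Mcm7 -0.56 in Sesn1-/- muscle (adjusted p = 0.427).

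The immobilization effect in WT muscle had 28 member calls in set 1 and 13 in set 2, and the difference between the sets was tested in a single fit over all 42 libraries, chosen after seeing the data. It passed for 2 members, both larger in set 1: Nusap1 (1.31, SE 0.37, adjusted p = 0.025, limma) and Prc1 (1.52, SE 0.48, adjusted p = 0.0483), where 6.2% of all genes passed. The difference was positive for 40 of 42 members with a median of 0.68, and the count of calls ranged over 0 to 7 with a library left out, the Nusap1 call being lost in 6 of 15 fits and the Prc1 call in 13 of 15. How the sets were brought to a common scale is not given in the sources used here, and the set cannot be told apart from anything else that differed between those animals.

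Markers of other cells moved beside the members. The summed level of 6 macrophage markers was 42.3 to 66.6 in WT basal muscle of set 1 and 236, 223 and 409 in immobilized replicates 1 to 3, and all 6 were called higher, as they were in Sesn1SkM-Tg muscle, where the sums were 31.6 to 65.5 in basal and 170, 474 and 439 in immobilized libraries. The 4 neutrophil markers in the table summed to 1.46, 4.68 and 39.7 in WT immobilized and 1.76, 10.9 and 53.8 in Sesn1SkM-Tg immobilized libraries, against 0.585 to 2.69 in basal muscle of those and the Sesn2SkM-Tg mice, so that the replicate 3 libraries with the highest members also had the highest neutrophil sums of their groups. In Sesn2SkM-Tg immobilized libraries the neutrophil sums were 6.98, 46.2, 5.75 and 4.11 and the macrophage sums 140, 257, 93.2 and 174, replicate 2 being the highest in both and for most members. Of the 4 neutrophil markers, 0 were called in WT set 1, 2 were called higher in Sesn1SkM-Tg and 1 in Sesn2SkM-Tg muscle. The 6 markers of fibro-adipogenic progenitors summed to 295 to 522 in basal WT muscle of set 1, with 5 called higher after immobilization. In immobilized replicates 1 to 3 they summed to 747, 820 and 1170 in WT and 837, 1430 and 1640 in Sesn1SkM-Tg muscle. In the immobilized Sesn2SkM-Tg libraries they summed to 470, 689, 393 and 520. The libraries highest for most members thus also had the highest fibro-adipogenic sums of these groups, as with the neutrophil sums. The 6 satellite cell and myoblast markers summed to 33.7 to 52 in basal and 52 to 61.6 in immobilized WT muscle of set 1, with Vcam1 and Sdc4 called higher. In Sesn1SkM-Tg muscle their sums were 56.3 to 90.8 when basal and 42.4 to 59.2 when immobilized, with Myod1 called lower. In Sesn2SkM-Tg muscle they were 54.2 to 74.4 and 56.8 to 99.6, with Sdc4 called higher. Adgre1 and Ly6g, defining markers of macrophages and neutrophils, have no row in the table. The part of these cells in the member counts was not tested.

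In set 2 macrophage sums were 36.2 to 155 in WT basal, 121 to 240 in immobilized and 52.1 to 137 in denervated muscle, with 2 and 1 of 6 markers called higher, and the basal library at 155 was replicate 3. Sesn1-/- libraries had 57 to 86.2 when basal and 199, 371, 61.2 and 105 when immobilized, replicate 2 being highest here and for 25 of 42 members. Neutrophil sums of set 2 were 0.423 to 18.2 in WT basal, 0.952 to 5.37 in immobilized and 2.79 to 8.67 in denervated muscle. In Sesn1-/- muscle they were 0.938 to 2.35 when basal and 3.51 to 8.97 when immobilized. The 6 markers of satellite cells and myoblasts summed to 44.2 to 52.5 in WT basal, 37.6 to 42.1 in immobilized and 151 to 171 in denervated muscle. In Sesn1-/- muscle they summed to 42.2 to 54.9 when basal and 45.1 to 81.1 when immobilized, with 0 called. In immobilized WT muscle Myod1 was called lower. After denervation 3 of the 6 (Myod1, Sdc4 and Megf10) were called higher and 3 were not called, with a median log2 change of 0.54. The higher sum is thus not shown by all 6 markers, and which cells it came from was not tested. The markers of fibro-adipogenic progenitors summed to 434 to 622 in basal and 249 to 416 in denervated muscle, with 4 called lower. The 6 fiber markers fell together after denervation, from sums of 115000 to 125000 to sums of 45300 to 60000, which also bears on any value expressed as a share of the library. The members' increase after denervation therefore stood beside a higher satellite cell and myoblast sum and a macrophage sum within the basal range, and what part either had was not tested.

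**Figure D4:**
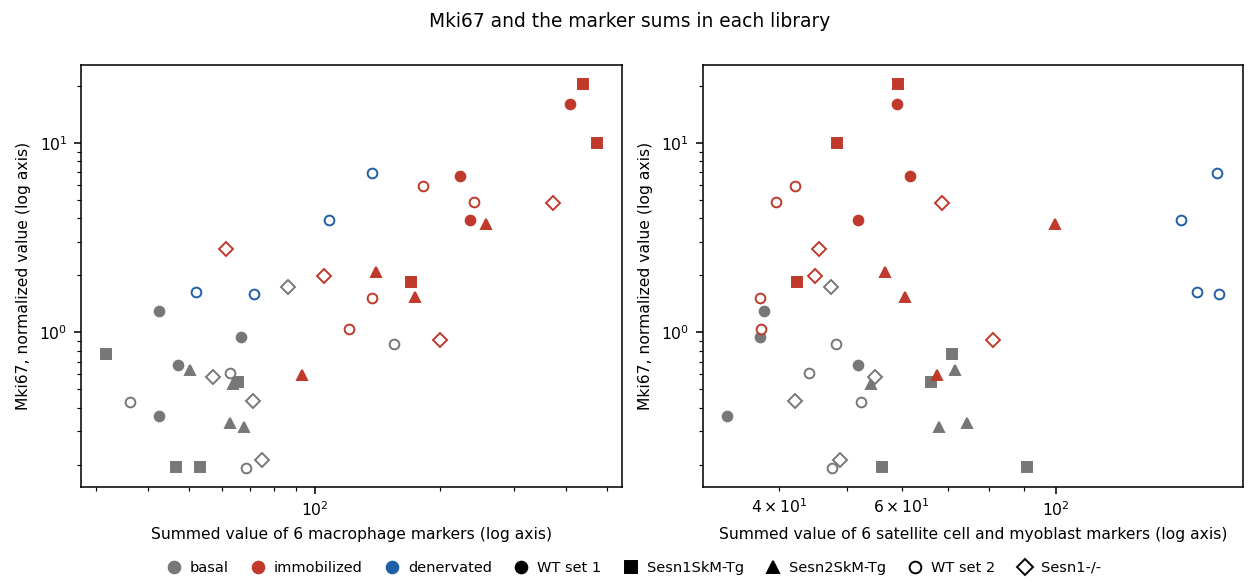
Mki67 in each of the 42 libraries against the summed level of 6 macrophage markers and of 6 satellite cell and myoblast markers, all normalized counts on log axes, coloured by treatment, with filled symbols for set 1 and open symbols for set 2 and a symbol for each genotype. Immobilized libraries of set 1 lie at high macrophage sums (93.2 to 474), and the denervated libraries stand apart at satellite cell and myoblast sums of 151 to 171.

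Of the other marker lists, the 5 endothelial markers were all called lower in immobilized WT muscle of set 2 and after denervation. In Sesn1-/- muscle 3 were lower, while 3 were higher in Sesn1SkM-Tg and 4 in Sesn2SkM-Tg muscle. In WT set 1, 1 was higher and 1 lower. Of the 5 pericyte and smooth muscle markers, 2 were higher in WT set 1, 5 in Sesn1SkM-Tg and 4 in Sesn2SkM-Tg, and 3 were lower in WT set 2, 1 in Sesn1-/- and 5 in denervated muscle. Of the 5 Schwann cell markers, 3 were higher in WT set 1, 5 in Sesn1SkM-Tg and 4 in Sesn2SkM-Tg, and 2 were lower in Sesn1-/-, 1 in denervated and 0 in WT set 2 muscle (limma). The 4 erythroid markers in the table were not called in any of the 6 comparisons (limma), with 2 at an unadjusted p under 0.05 after denervation, and no gene of the T and B cell list has a row in the table.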

How the data were processed

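Total RNA of tibialis anterior muscle was made into libraries with a kit that does not mark strand and sequenced on an Illumina instrument in 2 sets. Per the submitters' notes and the study's methods, the authors trimmed reads (Cutadapt 1.7.1), estimated transcript abundance with RSEM 1.2.20 on the GRCm38 mouse transcriptome and normalized with limma. edgeR is also named by the authors. The deposited values are a normalized signal per gene on a linear scale, not raw counts, and library sums ranged from 722430 to 1276769, so the read depth and its counting error are unknown. How the sets were scaled together is not given in the sources used here.

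Groups were taken from the sample labels. Each set was fitted with all its groups by limma 3.58.1 in R 4.3.3 (lmFit, contrasts.fit, eBayes with trend) on log2(value + 1), keeping genes that reached a value of 1 in any library of that set (13705 genes in set 1 and 13629 in set 2). Tests were two-sided with Benjamini-Hochberg adjustment over all genes of a comparison, and calls required a log2 change of 0.25 or more in size with an adjusted p below 0.05. Fold changes on this scale understate changes of low genes. The fit was tested on simulated data. There were 16 comparisons and 1 added after seeing the data. Values in every library are given for Mki67, Top2a, the 3 D-type cyclins and, in each role group, the member called in most of the 6 treatment comparisons. The members and all lists (105 other cell cycle genes and markers of muscle fiber, satellite cell and myoblast, macrophage, neutrophil, T and B cell, fibro-adipogenic progenitor, endothelial, pericyte and smooth muscle, Schwann and erythroid cells) were chosen with earlier results of these data known. Exon lengths and overlaps came from GENCODE M21 (all 42 members matched by gene ID) and promoters from RefSeq GRCm38.p6. Figures were drawn with matplotlib 3.10.9 in Python 3.11.15. Alternatives were other pseudocounts, filters, scalings and fold thresholds, a replicate block, fits of the compared groups alone, and leaving out each library.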

Additional observations from a re-analysis of the deposited data

Results flagged for a closer look

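Groups of 4 libraries were searched for a library standing far from the rest of its group (Dixon's test), for the 13 members with values given in every library. It was so for 5 of 117 groups, where chance gives about 1 in 20. In Sesn2SkM-Tg immobilized muscle, replicate 2 had Ccnd3 at 14.8, with the next library at 10.8, and Cdk4 at 35.7, with the next at 30.8. In Sesn2SkM-Tg basal muscle, replicate 4 had Cdk2 at 2.88, below the next library at 3.13, and Mcm6 at 1.73, below the next at 2.44. In WT basal muscle of set 1, replicate 4 had Rrm1 at 56.5, above the next library at 43.1.

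The immobilization effect in WT muscle was larger in set 1 than in set 2 for Nusap1, by 1.31 on the log2 scale, and for Prc1, by 1.52, tested as a difference of differences (limma, adjusted p = 0.025 and 0.0483). Prc1 may share reads with an opposite-strand gene over 11.1% of its exon bases.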

How the results depend on the processing

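Counts of members called kept within 1.5 times their main value under most settings, and no call changed direction. No filter, a filter of 1 in 3 libraries and a fit without the trend moved no count further than that. With a pseudocount of 0.1, Sesn2SkM-Tg immobilized against basal had 15 (main 8) and Sesn2SkM-Tg against WT immobilized 1 (main 0), and with no pseudocount 13 and 1. Rescaling gave 1 for Sesn2SkM-Tg against WT basal (main 2), 16 for denervated against immobilized (main 8) and 1 for the difference between the sets (main 2). Median centring gave 1 for Sesn2SkM-Tg against WT immobilized and 1 for the difference between the sets, and quantile scaling 0 for the latter. A log2 threshold of 1 gave 15 in WT set 1 (main 28), 20 in Sesn1SkM-Tg (main 33), 4 in Sesn2SkM-Tg, 4 in WT set 2 (main 13), 5 in Sesn1-/- (main 11), 10 in denervated muscle (main 27), 1 for Sesn2SkM-Tg against WT basal and 1 for denervated against immobilized. Fitting only the compared groups gave 1 for Sesn2SkM-Tg against WT basal and 0 for the difference between the sets. Without both immobilized replicate 3 libraries of WT set 1 and Sesn1SkM-Tg, the counts were 15, 19 and 13 in WT, Sesn1SkM-Tg and Sesn2SkM-Tg muscle. The cause of these shifts was not tested, and the shares of all genes called under these settings are not given here.

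With each library left out in turn, the calls ranged over 6 to 30 in WT set 1, 15 to 37 in Sesn1SkM-Tg, 4 to 8 in Sesn2SkM-Tg, 7 to 13 in WT set 2, 10 to 15 in Sesn1-/-, 21 to 29 in denervated muscle, 0 to 2 for Sesn2SkM-Tg against WT basal, 7 to 10 for denervated against immobilized and 0 to 7 for the difference between the sets. The lowest counts of WT set 1 and Sesn1SkM-Tg were without replicate 3 of the immobilized group. All other comparisons stayed at 0.

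By the study's methods, basal muscle came from mice without an atrophy treatment, so basal and treated libraries are not limbs of the same mice. Whether the replicate numbers mark a shared batch or another pairing of animals is not settled. Correlations of same-numbered libraries ran from -0.452 to 0.534, and no comparison had all of its pairs over 0.1. With 3 or 4 libraries in a group these values cannot exclude a shared batch or such a pairing of animals. Between immobilized Sesn1SkM-Tg and WT muscle they were 0.349, -0.128 and 0.505 for replicates 1 to 3. Replicates 1 and 3 of both groups were also the lowest and the highest for most members. With a replicate block the counts were 26, 34, 10, 12, 11 and 27 in the 6 treatment comparisons (WT set 1, Sesn1SkM-Tg, Sesn2SkM-Tg, WT set 2, Sesn1-/-, denervated), 2 for Sesn2SkM-Tg against WT basal, 8 for denervated against immobilized and 1 for the difference between the sets. Since depth is unknown, members below 1 in basal muscle have an unknown counting error, and their fold changes depend on the pseudocount.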

Other observations

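Of 105 further cell cycle genes listed, 100 have a row in the table, 100 were tested in set 1 and 92 in set 2. Called higher and lower were 36 and 4 in immobilized WT muscle of set 1, 45 and 4 in Sesn1SkM-Tg, 8 and 6 in Sesn2SkM-Tg, 16 and 7 in WT of set 2, 12 and 10 in Sesn1-/- and 38 and 18 in denervated muscle, and denervated exceeded immobilized muscle for 18 and fell below it for 8. Of all genes, 14.9% and 14.5%, 18.2% and 16.5%, 15% and 15.7%, 16.2% and 17.7%, 17.2% and 19.9%, 27.8% and 27.7%, and 20.5% and 18.4% were called in that order. The counts of higher genes in Sesn2SkM-Tg, WT set 2 and Sesn1-/- muscle were thus near or below the background. The same shares apply to the narrower groups that follow. The mitosis genes, 38 tested in set 1 and 33 in set 2, gave 21 higher and 1 lower in WT set 1 and 28 and 1 in Sesn1SkM-Tg muscle, but 2 and 1 in Sesn2SkM-Tg, 4 and 1 in WT set 2, 3 and 1 in Sesn1-/- and 15 and 2 in denervated muscle. Of the genes of origin licensing and the replication fork, 7 of 35 were higher and 1 lower in WT set 1 and 9 of 33 higher and 8 lower in denervated muscle. Of the DREAM and E2F regulators, 5 of 18 were higher and 2 lower in WT set 1 and 11 of 17 higher and 3 lower in denervated muscle. Single genes below were picked from these lists after their values were seen. Pttg1 (securin, which guards sister chromatids) and Rpa1 (a single-strand DNA binding protein) were lower in all 6 comparisons, with means in WT set 2 of 50.7 in basal and 26.4 in immobilized muscle (-0.92, adjusted p = 4e-07, limma) and of 81.1 and 49.6 (-0.70). Hmgb2 and E2f4 were higher in all 6.

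Of 9 CDK inhibitors and pocket proteins, which brake the cycle, 3 were higher and 5 lower after denervation. Of all genes tested, 27.8% were higher and 27.7% lower there, so the share called higher was near the background. Cdkn1a (p21, an inhibitor of cyclin-dependent kinases) went from a mean of 6.13 in WT basal to 108 in denervated muscle (3.93 on the log2 scale, adjusted p = 3.39e-11, limma). With immobilization it rose in WT set 1 (1.3), Sesn2SkM-Tg (1.64) and Sesn1-/- muscle (1.60), and did not pass in WT set 2 (0.33, adjusted p = 0.324) or Sesn1SkM-Tg (-0.05). In immobilized muscle Cdkn1a was higher in Sesn1-/- than in WT, with means of 25.2 and 8.26 (1.43, adjusted p = 0.00586). Rb1, the retinoblastoma protein, rose after denervation from 17.3 to 60.5 (1.75), and Rbl2 by 0.59, while Rbl1 (-0.83), Cdkn1b (-0.35), Cdkn1c (-0.95), Cdkn2c (-0.49) and Cdkn2d (-0.71) were lower. The change of Cdkn1b is about as large as the shift of all genes after rescaling (0.348). That shift would lessen the other lower changes too, and their values after rescaling are not given here.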
